A study of Mus musculus with 2 samples.

Results

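The 9 genes studied mark macrophages and Kupffer cells, the resident macrophages of the liver, and were read in cultures of mouse primary hepatocytes as a check for immune cells left in the cultures. They were chosen by name, as every non-control probe whose gene name or older synonym was Mpeg1, Cd14, Cd68, Clec4f, Marco, Cd163, Lyz2, Emr1 (now Adgre1) or Vsig4. This gave 9 of 23602 named genes, with 11 probes of 1 spot each. One array was made from hepatocytes given control siRNA and 1 from hepatocytes given G0s2 siRNA. Both groups received 50 pmol of siRNA with a lipid reagent in medium containing 10% serum, and expression was measured 24 hours after transfection. Mouse strain, sex, age, any purification step and the number of animals are not given in the sources used here. G0s2 encodes an inhibitor of the triglyceride lipase ATGL. With 1 array a group there was no replicate, so no test was made, and all errors are the scanner's own error of the spot signal.

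Kupffer cells line the liver sinusoids and take up bacteria, cell debris and ageing red blood cells from portal blood. They do so with surface receptors for bacterial lipopolysaccharide, for polyanions, for complement fragments and for haemoglobin, and break the cargo down in lysosomes. Hepatocyte isolation starts from digested whole liver, so preparations can carry some of these cells along with endothelial and stellate cells. Clec4f in the mouse is a marker of Kupffer cells, whereas Cd14 is also made by hepatocytes and Cd68 by several phagocytes. In RNA from a whole culture, fewer macrophages and less RNA per macrophage cannot be told apart.

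The sequences of 5 probes are shown because detection rests on what a probe captures. They belong to Clec4f, the Kupffer cell marker, to Cd163, which was not detected, and to Lyz2, whose call depended on the processing. The others belong to Emr1 and Mpeg1, the genes with a pair of probes. Each is written 5′ to 3′ as deposited, in lower case throughout.
Lyz2: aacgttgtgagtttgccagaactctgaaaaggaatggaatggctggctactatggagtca
Mpeg1: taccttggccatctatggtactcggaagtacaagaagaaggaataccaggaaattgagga
Clec4f: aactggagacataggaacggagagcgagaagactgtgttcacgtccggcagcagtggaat
Emr1: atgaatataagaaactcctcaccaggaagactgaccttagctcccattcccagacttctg
Cd163: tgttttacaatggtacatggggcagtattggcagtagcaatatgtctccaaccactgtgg

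On mm9, the build named in the scanner files, the Lyz2 probe lies at chr10:116719175-116719234 on the minus strand and starts at position 94 of its transcript. The Mpeg1 probe shown lies at chr19:12537697-12537756 on the plus strand, from transcript position 2257, and the other Mpeg1 probe at chr19:12539387-12539446, from position 3947. That other probe was brighter and stood for the gene. Clec4f is read at chr6:83595281-83595339 on the minus strand and Cd163 at chr6:124270436-124270495 on the plus strand. The Emr1 probes lie at chr17:57620350-57620409 and chr17:57622868-57622927 on the plus strand, from positions 2732 and 3160. The Emr1 sequence shown is that of the probe at position 2732. The remaining probes are those of Cd68 at chr11:69478979-69479038, Marco at chr1:122371115-122371134, Vsig4 at chrX:93442598-93442657, and Cd14 on chromosome 18. The files' intervals for Marco and Clec4f are shorter than their 60-base probes. Exon and UTR annotation on mm9 was not used here.

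Most of these markers gave signal in both cultures. A probe well above background, by the scanner's own flag, was present for 7 of the 9 genes with control siRNA and for 8 with G0s2 siRNA. The share of all named genes was 60.9% with control siRNA, 64.2% with G0s2 siRNA and 59.8% on both arrays. Cd163 was not well above background on either array, and Lyz2 only on the G0s2 siRNA array. The 153 negative control spots reached a processed signal of at most 6.11 with control siRNA and 20.6 with G0s2 siRNA, with medians of 3.11 and 3.89. All member probes but that of Cd163 lay above those maxima. The scanner flagged 1 negative control spot as well above background with G0s2 siRNA and 0 with control siRNA.

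Levels below are log2 processed signals relative to the 75th percentile of the same array, which was a signal of 418 with control siRNA and 728 with G0s2 siRNA. Differences are G0s2 siRNA minus control siRNA on that scale. Centring on 8 spike-in control probes instead raised each measured difference by 1.55 and the median of all genes to 1.49, so a difference between -1.55 and 0 has the opposite sign on that scale. A level compares the arrays for 1 probe, and levels of different probes were not ranked against each other. As the check of the labels, G0s2 was at -0.13 with control siRNA and -2.83 with G0s2 siRNA.

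**Figure D1:**
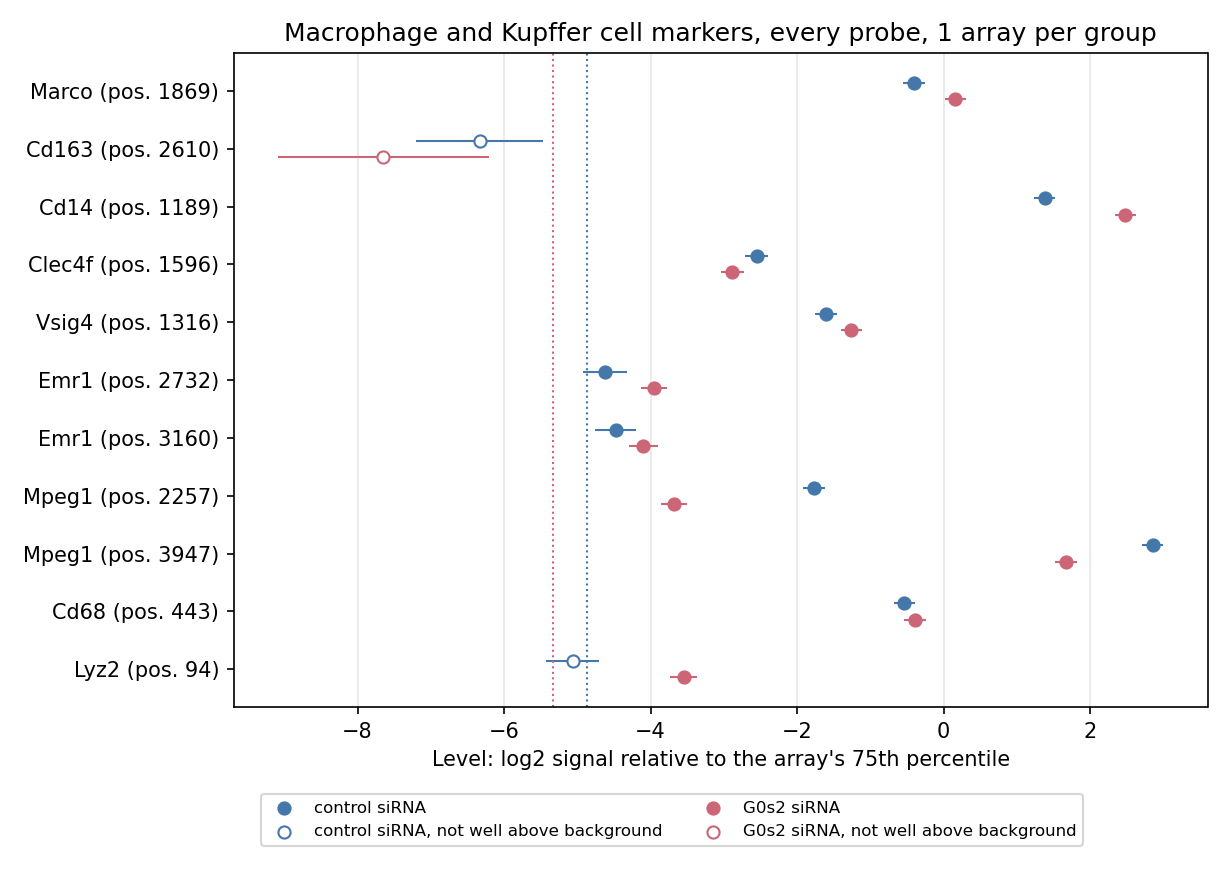
Levels of the 11 member probes (log2 signal relative to each array's 75th percentile) on both arrays, with the scanner error as bars, open points for spots not well above background and dotted lines at each array's lowest signal above background. Both Mpeg1 probes lie lower with G0s2 siRNA, Cd14 lies higher, and both Cd163 points are open.

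Of the surface receptors, Cd14 was the one that was at least 2-fold higher with G0s2 siRNA among members measured on both arrays. CD14 hands lipopolysaccharide to the receptor formed by TLR4 and MD-2, the product of Ly96. The processed signal of Cd14 was 1090 with control siRNA and 4055 with G0s2 siRNA. Its level was 1.38 with control siRNA and 2.48 with G0s2 siRNA, a difference of 1.10 ± 0.20, or 2.14-fold. That difference was 5.37 times its scanner error. It rests on 1 spot per array.

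The other receptors measured, Marco, Vsig4, Clec4f and Emr1, were within 2-fold. Marco, a class A scavenger receptor for bacteria and particles, gave signals of 316 with control siRNA and 813 with G0s2 siRNA. Its level was higher with G0s2 siRNA by 0.56 ± 0.20, or 1.48-fold. Vsig4, the complement receptor with which Kupffer cells bind C3 fragments, had signals of 137 and 304 in the same order, a difference of 0.35 ± 0.21. Clec4f, a C-type lectin receptor that binds galactose-type sugars, had signals of 71.4 with control siRNA and 98.6 with G0s2 siRNA. Relative to the 75th percentile Clec4f was lower with G0s2 siRNA, at -0.33 ± 0.22, but higher by 1.22 under spike-in centring. The raw signals of these receptors were all higher on the G0s2 siRNA array, whose 75th percentile was 1.74 times that of the control array.

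Emr1 encodes F4/80, the adhesion receptor that is the classical surface marker of mouse macrophages. Its probe at position 2732 gave a signal of 17.1 with control siRNA and 47.0 with G0s2 siRNA. Its probe at position 3160 gave 18.8 with control siRNA and 42.5 with G0s2 siRNA. The differences were 0.67 ± 0.35 and 0.38 ± 0.34, and the control values lay close to 14.3, the lowest signal flagged as well above background on that array. With normexp, a background correction that models signal and background together and here adds an offset of 50, both probes turned to -0.11 and -0.23. That offset is above the processed signals of both probes, and such an offset by itself pulls the ratios of dim spots together. The direction for Emr1 was therefore not settled by these values.

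Cd163 encodes the receptor that clears haemoglobin bound to haptoglobin. Its processed signal was 5.20 ± 3.12 with control siRNA and 3.63 ± 3.63 with G0s2 siRNA. Neither value was well above background, so no fold was taken. The spot pixels averaged 80.2 and 88.9 against a local background of 67.0 and 62.0. Hp, the haptoglobin gene and a major product of hepatocytes, was well above background on both arrays and differed by 0.45 ± 0.20.

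Mpeg1 was lower with G0s2 siRNA on both of its probes, the lowest differences among the members measured. Mpeg1 encodes perforin-2, a pore-forming protein of phagocytes that acts on engulfed bacteria. At position 3947 the signal was 3024 with control siRNA and 2317 with G0s2 siRNA. At position 2257 it was 123 with control siRNA and 56.8 with G0s2 siRNA. The signal was thus lower with G0s2 siRNA even before scaling, on both probes, while 8 of the 11 member probes had the higher raw signal on that array. The scaled differences were -1.18 ± 0.20, or 2.27-fold lower, and -1.91 ± 0.23, or 3.76-fold lower. The gap between the probes was 0.73, larger than that of 84.9% of 2561 genes with 2 measured probes of one accession, where the median gap was 0.27. Both probes gave the same direction, which held for 71.1% of those pairs. Under spike-in centring the direction was not the same for both, with 0.37 at position 3947 and -0.36 at position 2257.

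The lysosomal markers differed from each other. Cd68 encodes macrosialin, a lysosomal membrane glycoprotein of phagocytes. Its signals were 289 with control siRNA and 555 with G0s2 siRNA, and its level differed by 0.14 ± 0.20, less than the scanner error. Lyz2 encodes lysozyme M, which cleaves bacterial cell walls. Its signal was 12.5 ± 3.15 on the control array, not well above background, and 62.4 ± 7.98 on the G0s2 siRNA array. Lyz2 was at least 2.51-fold higher with G0s2 siRNA on that scale, a bound taken against the lowest control signal above background. With normexp its difference was -0.22, so the call was lost and the sign turned. Its control signal lay below the offset of 50 added there, so that turn does not settle a direction either.

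Lyz1, the intestinal lysozyme gene and a near-identical neighbour of Lyz2, was higher with G0s2 siRNA by 0.95 ± 0.22, with signals of 53.2 and 178. Probes of near copies can share target RNA, so the separate values of Lyz1 and Lyz2 are uncertain. The Lyz1 probe starts at position 1194 and the Lyz2 probe at position 94 of their transcripts.

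**Figure D2:**
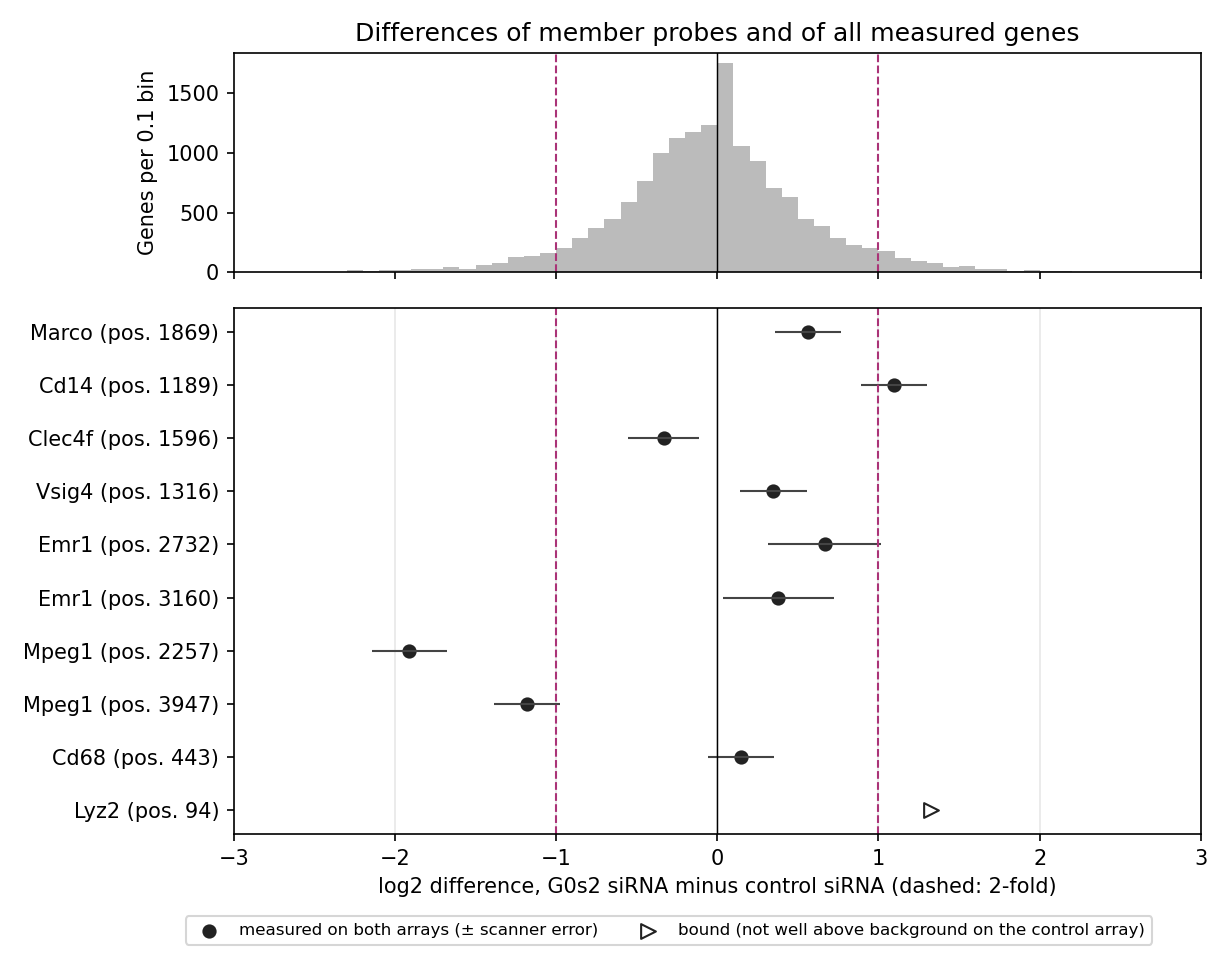
Upper panel, number of genes per 0.1 bin of log2 difference (G0s2 siRNA minus control siRNA) over 15412 measured genes, with 434 bounds under 1-fold counted at 0. Lower panel, the same difference for each member probe with its scanner error, and the Lyz2 bound as a triangle; the member probes at or beyond the dashed 2-fold lines are those of Cd14, Lyz2 and Mpeg1.

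Taken over the set, 8 of the 9 genes were measured, meaning that some probe was well above background with at least 1 of the siRNAs. Of these 8, 2 (Cd14 and Lyz2) reached 2-fold upward with G0s2 siRNA and 1 (Mpeg1) reached it downward. Of all 15412 measured genes, 4.81% reached 2-fold upward and 5.46% downward. The other 5 members were within 2-fold. At 3-fold the members gave 0 in each direction on the brightest probe of each gene, against 1.14% of all genes upward and 1.53% downward. The other Mpeg1 probe was past that line, at 3.76-fold lower. By more than 2 scanner errors 3 members were higher (Cd14, Lyz2 and Marco) and 1 was lower (Mpeg1), against 16.1% and 19.7% of all genes. The median difference was 0.45, against -0.03 for all genes, and 0.35 over the 7 members measured on both arrays. Lyz2 passed the filter through the G0s2 siRNA array alone, so it could not have been lower. With normexp the median of the members was 0.046 and that of all genes -0.15. The members did not move in 1 direction, with values from -1.18 to 1.10 on the brightest probes of those measured on both arrays.

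**Figure D3:**
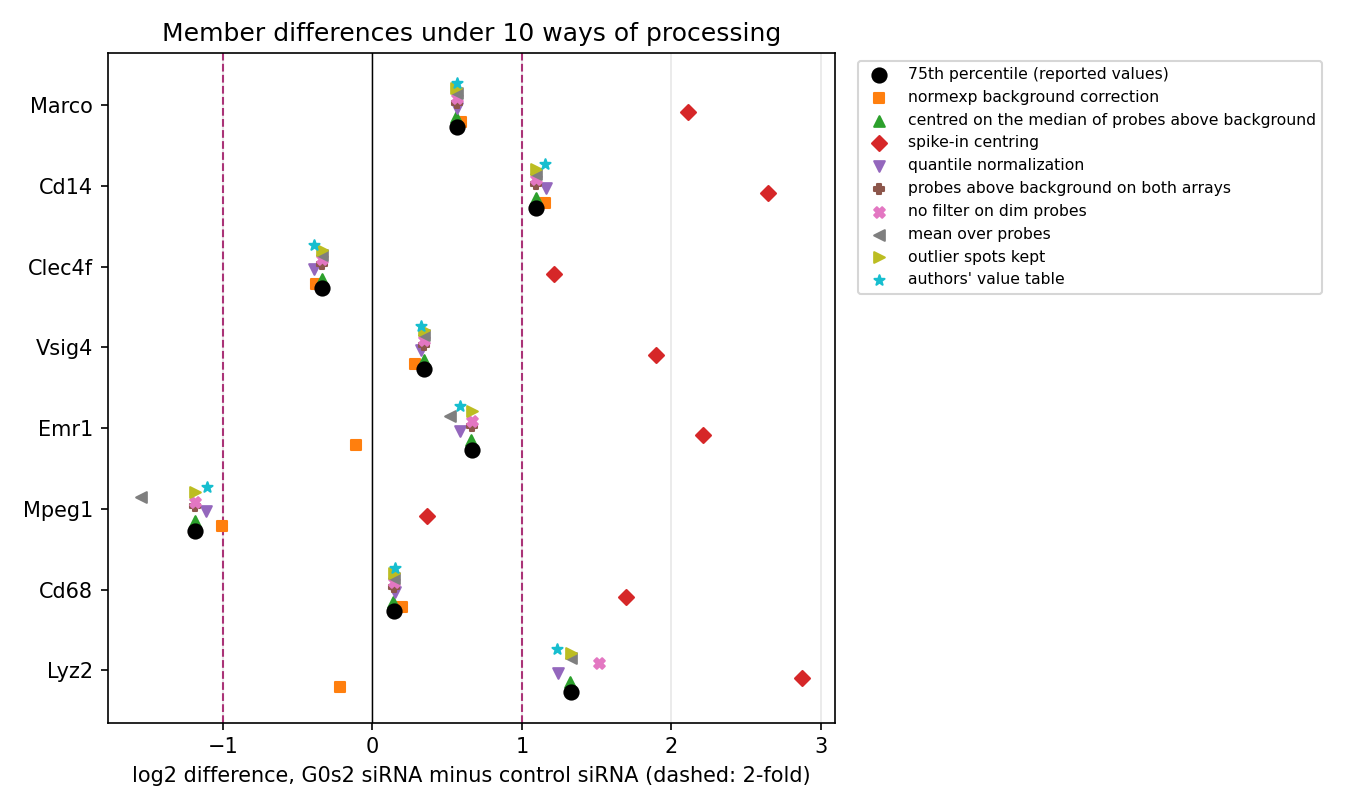
log2 difference (G0s2 siRNA minus control siRNA) of each measured member under 10 ways of processing, with the reported values as black points and dashed lines at 2-fold. Spike-in centring moves every member upward, to between 0.37 and 2.87, and normexp moves Emr1 and Lyz2 below 0.

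Other genes of Kupffer cells differed in both directions between the arrays. Beside the 2-fold counts of this and the following lists, 4.81% of all measured genes reached 2-fold upward and 5.46% downward. Of 19 on a list of further Kupffer cell genes, 16 were well above background on both arrays, against 59.8% of all named genes. Of the 16, 0 reached 2-fold upward and 2 downward, and the median was 0.038, or -0.13 with normexp. The lower genes were Slc40a1, which encodes the iron exporter ferroportin, at -1.39 ± 0.20, and Il18bp, which encodes the interleukin-18 binding protein, at -1.07 ± 0.20. Id3, an inhibitor of DNA binding, differed by -0.93. Slc40a1 and Id3 are also expressed outside macrophages. Some of the 16 are shared with the haem list and the pore-forming list below, so the count is not particular to Kupffer cells. The highest differences on the list were those of Fcgr2b, an inhibitory receptor for antibodies, at 0.63 ± 0.23 and Cd5l, a secreted macrophage protein, at 0.50 ± 0.20. The complement subunit genes C1qa, C1qb and C1qc, named like Fcgr2b and Cd5l after their values were seen, differed by 0.071, -0.16 and 0.0045, each less than its scanner error of 0.21. Their signals were 94.5, 98.8 and 113 with control siRNA and 173, 154 and 197 with G0s2 siRNA. Spic, Timd4 and Cd207 were not well above background on either array.

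Of 27 further mononuclear phagocyte genes with a probe, 66.7% were well above background with control siRNA and 70.4% with G0s2 siRNA. All named genes gave 60.9% and 64.2%. Of the 27, 20 were measured, 0 reached 2-fold upward and 1, Siglec1, reached it downward as a bound. Siglec1 passed the filter through the control siRNA array alone, so it could not have been higher. Its bound was -1.01, with a scanner error of 0.81. The median was 0.021, and -0.29 with normexp. Csf1r, the receptor for the growth factor that macrophages need, was well above background on all 3 of its probes. Its signals were 806 with control siRNA and 992 with G0s2 siRNA on the brightest probe. That probe differed by -0.50 ± 0.20 and the others by -0.20 and -0.09. Mertk, a receptor for dying cells, differed by 0.94 ± 0.23, and Sirpa, an inhibitory receptor, by -0.81 ± 0.24. Neither array had signal well above background for 7 genes, namely Ccr2, Cx3cr1, Cybb, Fcgr1, Itgax, Msr1 and Spi1. Spi1 encodes PU.1, the transcription factor that macrophages depend on, and Msr1 is the scavenger receptor related to Marco.

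Genes shared by all leukocytes gave 11 of 18 well above background with control siRNA and 14 with G0s2 siRNA. These were 61.1% and 77.8%, against 60.9% and 64.2% of all named genes, so the control share was near that of all genes. The further genes with G0s2 siRNA entered through that array alone, so they could not have been lower. Ptprc, which encodes the common leukocyte antigen CD45, was at signals of 12.6 and 18.8 and was not well above background on either. Lcp1, an actin-bundling protein, was the 1 gene at least 2-fold higher, at 1.61 ± 0.20 and 1.03 on its other probe, and 0 were at least 2-fold lower. Ptpn6, a phosphatase, differed by -0.72 and Was, an actin regulator, by 0.56. The median of the 14 measured genes was 0.15, and -0.34 with normexp.

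Genes that work beside the members did not share 1 direction. In the lipopolysaccharide receptor list, 2 of 15 measured genes reached 2-fold upward and 1 downward, and the median was 0.077, or -0.045 with normexp. Lbp, the plasma protein that loads lipopolysaccharide onto CD14 and a product of hepatocytes, was higher by 1.60 ± 0.20, with signals of 1701 and 8977. The adaptor gene Tirap was higher by 1.64 ± 0.20. Tlr4 was lower, at -1.06 ± 0.24 with signals of 61.7 and 51.5, and Ly96 differed by -0.14 ± 0.20. The scavenger receptor list had 8 of 13 genes measured, a median of -0.11 and, on the brightest probe of each gene, 0 past 2-fold in either direction. Its largest differences were Cxcl16 at -0.82, Scarb1 at 0.61 and Lrp1 at 0.52, but the other probe of Scarb1 gave 1.10, past 2-fold. For C3, whose fragments bind the Vsig4 product, the probes differed by 0.45 and 0.32, and the complement receptor list had 0 of 7 past 2-fold and a median of 0.45, which was 0.17 with normexp and 0.26 over genes above background on both arrays.

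The shares of all measured genes past 2-fold were 4.81% upward and 5.46% downward. Of 15 lysosomal protein genes, 3 reached 2-fold upward and 0 downward, and the median was 0.064, or 0.29 with normexp. They were the membrane protein genes Lamp1 at 1.36 and Lamp2 at 1.20 and the protease gene Ctsd at 1.13, which many cell types express. The other probe gave 0.73 for Lamp2, within 2-fold, and 1.79 for Ctsd. The haemoglobin and haem list had 0 of 9 past 2-fold upward and 1 downward, Slc40a1, and its median was -0.11, or -0.015 with normexp. Blvrb differed by -0.62 and Hpx by 0.60 there. Among 9 pore-forming and lytic genes, a list that includes Mpeg1 and otherwise mostly holds complement genes of hepatocytes, 1 reached 2-fold upward, C8b at 1.59, and 2 downward, C9 at -1.21 and Mpeg1. The median of that list was -0.21, and 0.0025 with normexp. Of 12 macrophage cytokine genes, 8 were not well above background on either array, among them Tnf, Il1b, Il6 and Il10. Ccl4 was at least 2-fold lower, at -1.22 ± 0.24, Il18 differed by -0.48 and Tgfb1 by -0.39, and the median of the 4 measured was -0.44.

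**Figure D4:**
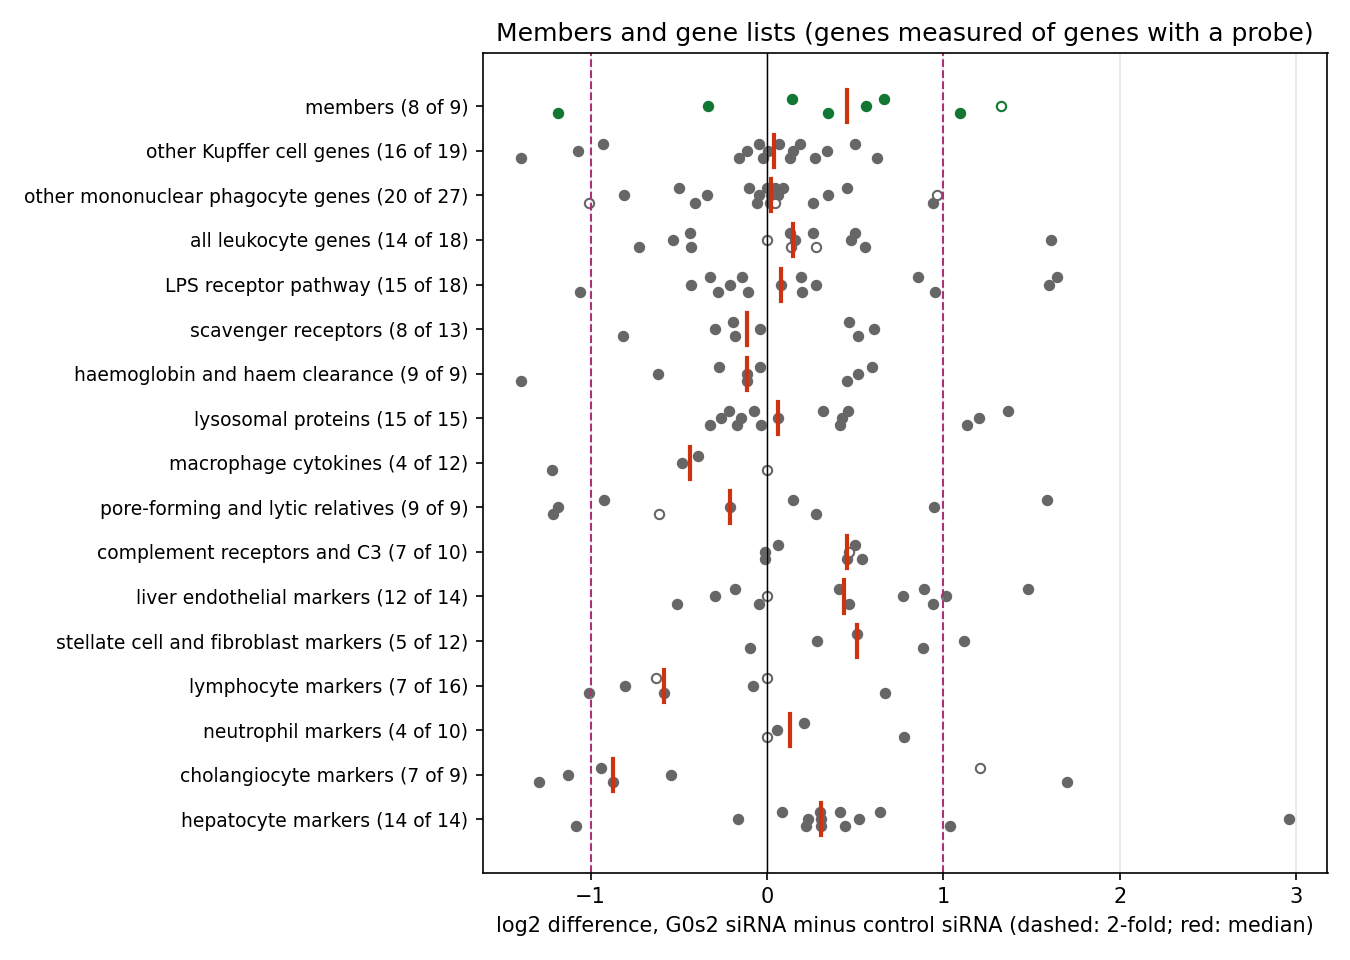
log2 difference (G0s2 siRNA minus control siRNA) of each measured gene in the member set (green) and in 16 other lists (grey), with bounds as open points, medians as red bars and dashed lines at 2-fold. The member set spans -1.18 to 1.33 with a median of 0.45, and the list of other Kupffer cell genes has a median of 0.038.

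Markers of the other cells such a culture could hold were read in the same way. Beside the counts below, 60.9% of all named genes were well above background with control siRNA and 64.2% with G0s2 siRNA. Past 2-fold were 4.81% of all measured genes upward and 5.46% downward. All 14 hepatocyte markers were well above background on both arrays, with a median of 0.31; Cps1 at 2.96 and Hnf4a at 1.04 reached 2-fold upward and Fah at -1.08 downward. Endothelial markers were well above background for 11 of 14 genes with control siRNA and 12 with G0s2 siRNA. Their median was 0.44 and 2 were at least 2-fold higher, Ptprb at 1.48 and Cdh5 at 1.01, while normexp gave a median of -0.11. The other probe of Ptprb was not well above background on the control array and gave no fold. Flt1 differed by 0.94. The control signals of Ptprb and Cdh5 were 24.7 and 28.1. Of the 12 endothelial markers measured, 7 were higher and 4 lower, the lowest being Kdr at -0.51 ± 0.20 on its brightest probe. Stellate cell and fibroblast markers were detected for 5 of 12 genes on each array, with a median of 0.51 and 1, Dcn at 1.12, at least 2-fold higher; Col3a1 differed by 0.88 and Col1a2 by 0.51. With normexp that median was 0.057. Lymphocyte markers were detected for 6 of 16 genes on each array, with a median of -0.58, and Cd3e was the 1 gene at least 2-fold lower, at -1.01. Ccl5 differed by -0.80 and Cd4 by 0.67. Neutrophil markers were detected for 3 of 10 genes with control siRNA and 4 with G0s2 siRNA, with a median of 0.13, or -0.039 with normexp, and 0 past 2-fold; Camp differed by 0.77 on its brighter probe and by less than its scanner error on the other, Csf3r by 0.21 and Elane by 0.056. Cholangiocyte markers had a median of -0.87 over 7 genes, or -0.66 with normexp. Of these genes, 2 were past 2-fold upward and 2 downward, among them Tspan8 at 1.70, Cldn7 at -1.29 and Krt19 at -1.13. The other upward gene was a bound, not well above background with control siRNA, so it could not have been lower. The part of any of these cells in the member differences was not tested.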

How the data were processed

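RNA of 2 cultures was read on 2 one-colour Cy3 arrays, 1 per group, from 0.5 ug of RNA per the labels' protocols. Per the file headers, both lay on 1 slide (position on it and group cannot be told apart) and were read with Agilent Feature Extraction 10.7.1.1, and the deposited processed signals are linear intensity values after the scanner's background correction. The scanner's other deposited columns used here are flags of 0 or 1. The authors' series table holds 39429 linear intensity values per array with a median of 33.1 in both columns, and no source used here gives its normalization. It served as an alternative.

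Control and outlier spots were left out, log2 signals were centred on each array's 75th percentile, and probes were named through a RefSeq table of another assembly (GRCm38.p6), used for names only. Of 39424 probes, 26408 were named by accession, 3854 by symbol and 734 by synonym, and 8428 were unnamed. Of the probes of a gene that either array showed well above background, the brightest stood for the gene, while every probe is given for the members. A spot not well above background was set to the higher of its signal and the array's lowest signal above background, and such differences are bounds. Scanner errors were propagated to the difference. No spot was saturated, and the number of arrays limits precision.

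The members and the 16 other lists (217 genes) were chosen with earlier results of these data known. Named genes are all members, their fixed partners, and up to 3 genes per list with the largest difference measured on both arrays. Outside that rule, Siglec1, Fcgr2b, Cd5l, Kdr and the C1q genes, and genes listed as not well above background, were named after their values were seen. Calls use a 2-fold rule. Alternatives were normexp (offset 50), 2 other centrings, quantile normalization, 2 filters, means over probes, outlier spots kept, the authors' values, rules of 1.5-fold, 3-fold and 2 scanner errors, and 2 other detection flags. The code was tested on simulated data in which both arrays carried the same detection flags, so the rule for bounds was not exercised. Python 3.11.15, numpy 2.4.6, pandas 2.3.3, scipy 1.17.1, matplotlib 3.10.9, R 4.3.3 and limma 3.58.1 were used.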

Additional observations from a re-analysis of the deposited data

How the results depend on the processing

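Directions are relative to the centring. Spike-in centring, on 8 spike-in probes whose raw signals differed by -0.98 to -0.056, moved the median of all genes from -0.03 to 1.49, the median of the members to 2.003, the members at least 2-fold higher to 7 and those lower to 0, and turned Mpeg1 to 0.37. It turned the share of higher genes among all past 2-fold from 46.8% to 99.7%. Normexp moved the median of the members to 0.046 and the count of members at least 2-fold higher to 1, and turned Lyz2 to -0.22. Only probes above background on both arrays gave 1 member at least 2-fold higher, since Lyz2 left the set, and no filter gave 2 lower, since Cd163 entered it. The 3-fold rule left 0 higher and 0 lower on the brightest probe of each gene. For Mpeg1 the mean over its probes gave -1.55. For the other alternatives the median of the members and both counts stayed within the scanner error or within 1.5 times. Of the 16 list medians, spike-in centring moved 16, normexp 8 and the absence of a filter 1 by more than the median scanner error, and the other alternatives 0. No paired analysis was possible because each group has 1 array. Leaving out a replicate was not possible for the same reason.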
